A study of Mus musculus with 9 samples.

Results

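Slc4a7, Shroom3, Clec2d, Arid5b, Lnpep, Sacm1l, Egf, Gucy2c, Acvr1b and Rab5b, 10 genes of unrelated function, were followed over all arrays of a feeding study of mouse brain. They were selected on a large difference in signal between mice on restricted food (CR) and freely fed mice (AD) in these same data. Their differences between those 2 diets are therefore a description, with no test. Their probes were found through the RefSeq transcript that the scanner files give for each probe: 13 of 41174 probes and 22 of 43379 noncontrol spots, for 10 of 16358 named genes.

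The mice were male wild-type (WT) C57BL/6J, 8 to 9 weeks old, and carried no altered allele. CR mice received, over each cycle, a reduced ration set from what the RFR mice had eaten, RFR mice alternated between a fasting and a refeeding period, and AD mice, the controls, ate ad libitum. Amygdala, hypothalamus and prefrontal cortex were cut from coronal slices on day 8. For every region and diet a single array was hybridised with RNA pooled from 4 mice, 9 arrays in all, so there was no replicate and the spread between mice was not measured.

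Levels are log2 values of the scanner software's processed signal divided by the 75th percentile of its own array, so that 0 is the signal of a fairly bright spot and each step of 1 log2 unit is a 2-fold step. On the 9 arrays 59.8% to 69.6% of noncontrol spots were well above background. Repeated spots of 1 probe had a median SD of 0.063 to 0.099 on an array, and of 0.101 to 0.151 for dim probes. These values measure the printing and scanning of 1 array and leave out differences between mice, dissections and labellings. The dissected regions carried their markers: the 6 hypothalamic markers summed to 348 to 432 times the 75th percentile signal on hypothalamus arrays against 1.21 to 16.6 elsewhere, the 5 amygdala markers to 29.0 to 39.4 against 6.44 to 10.1, and the 6 cortical markers to 17.0 to 20.4 against 1.33 to 5.06. Tfap2c of the amygdala list was not well above background on 5 of the 6 other arrays, and Tbr1 and Neurod6 of the cortical list were not on any hypothalamus array. Slides were shared unevenly: the AD arrays and the RFR prefrontal cortex array lay on slide 1, the other RFR arrays and the CR hypothalamus and prefrontal cortex arrays on slide 2, and the CR amygdala array alone on slide 3. No CR array shared a slide with an AD array, so CR minus AD cannot be told apart from slide in any region. The same holds for RFR minus AD in amygdala and hypothalamus. In pooled tissue RNA, fewer cells of a type and less RNA per cell cannot be told apart.

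The 10 genes work in different parts of the cell. Slc4a7 is a sodium bicarbonate cotransporter that brings bicarbonate into cells and counters acid, in neurons among others. Shroom3 binds actin and recruits actomyosin to narrow the apical side of epithelial cells, as in the closing neural tube. Egf is the precursor of epidermal growth factor, Acvr1b a type I receptor for activin, Gucy2c the guanylyl cyclase receptor for guanylin and uroguanylin, best known from the gut, and Clec2d a membrane lectin recognised by a receptor of natural killer cells. Lnpep is the insulin-regulated aminopeptidase, which travels with the glucose transporter Slc2a4 and cleaves oxytocin and vasopressin. Sacm1l removes the phosphate from phosphatidylinositol 4-phosphate in the endoplasmic reticulum and Golgi. Rab5b is a small GTPase of early endosomes, and Arid5b an AT-rich DNA-binding protein that acts with the histone demethylase Phf2.

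The promoters of 4 of these genes are shown because their signals ran together over the arrays (Clec2d, Sacm1l and Egf, higher in CR than in AD hypothalamus) or went the other way (Lnpep, lower there). The sequences run 5′ to 3′ from 250 bases before to 50 bases after the start of the gene, from RefSeq on GRCm38.p6, and capitals mark every match, on either strand, of the motifs searched.
Clec2d (chr6:129180365-129180664, plus strand): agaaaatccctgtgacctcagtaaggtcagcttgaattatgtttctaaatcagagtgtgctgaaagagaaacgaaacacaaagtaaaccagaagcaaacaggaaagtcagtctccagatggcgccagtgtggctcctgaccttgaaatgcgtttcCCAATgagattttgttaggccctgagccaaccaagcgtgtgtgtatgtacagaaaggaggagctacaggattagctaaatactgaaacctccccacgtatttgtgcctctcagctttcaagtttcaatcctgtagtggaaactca
Sacm1l (chr9:123529503-123529802, plus strand): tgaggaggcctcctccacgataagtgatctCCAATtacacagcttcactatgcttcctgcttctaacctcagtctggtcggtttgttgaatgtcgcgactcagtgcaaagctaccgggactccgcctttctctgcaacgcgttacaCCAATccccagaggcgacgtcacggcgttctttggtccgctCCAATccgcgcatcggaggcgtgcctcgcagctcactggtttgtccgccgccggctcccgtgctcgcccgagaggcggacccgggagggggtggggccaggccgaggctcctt
Egf (chr3:129755273-129755572, minus strand): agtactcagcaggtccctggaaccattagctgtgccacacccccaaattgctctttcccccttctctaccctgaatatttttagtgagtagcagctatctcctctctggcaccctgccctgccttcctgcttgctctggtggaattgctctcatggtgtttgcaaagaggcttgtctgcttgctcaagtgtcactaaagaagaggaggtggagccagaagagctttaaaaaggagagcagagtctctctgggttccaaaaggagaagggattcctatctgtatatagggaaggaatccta
Lnpep (chr17:17624440-17624739, minus strand): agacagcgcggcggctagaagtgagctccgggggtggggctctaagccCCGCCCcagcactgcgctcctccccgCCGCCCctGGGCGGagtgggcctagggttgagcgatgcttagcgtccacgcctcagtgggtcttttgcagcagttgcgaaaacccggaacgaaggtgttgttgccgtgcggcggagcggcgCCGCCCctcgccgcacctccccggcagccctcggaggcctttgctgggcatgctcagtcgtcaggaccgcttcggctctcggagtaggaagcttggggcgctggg
Of the 10 genes, 9 had an entry, and the windows of Clec2d, Sacm1l, Egf (1 of its 2), Lnpep and Acvr1b lie at the start of the gene as annotated. Those of Slc4a7, Arid5b, Shroom3 and Rab5b and the other of Egf belong to starts inside the annotated gene and are not shown. The motifs, searched on both strands, were the E-box CACGTG, the cyclic AMP response element TGACGTCA, the CCAAT box with those letters, the GC box GGGCGG and the TATA motif TATAAA. None of them contains another. CCAAT, in 37.4% of 32841 mouse promoter windows of this length, occurred 1 time for Clec2d and 3 times for Sacm1l, and not for Egf, Lnpep and Acvr1b. In the windows of starts inside genes it occurred 1 time for Slc4a7, 1 and 2 times for Shroom3, and not for Arid5b and Egf. It occurred 4 times for Rab5b, whose start lies 16 bases inside the gene, so that most of its window lies before the gene. Genes higher and genes lower in CR thus each include windows with and without it. GGGCGG, in 35.7% of windows, occurred 4 times each for Lnpep and Acvr1b and not for Clec2d, Sacm1l and Egf. CACGTG, in 7.15% of windows, occurred 1 time for Acvr1b, and TGACGTCA (1.79%) and TATAAA (13.6%) were in none of the 5 windows at a gene start. The Lnpep window held 30 CpG dinucleotides against a median of 7. The matches are letters in these windows and say nothing of factor binding.

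Slc4a7, measured by 1 probe in 1 spot and bright on every array, had the widest range of the 10 genes. Its amygdala levels were 1.00 in CR, 2.09 in RFR and 4.95 in AD. Hypothalamus gave 3.56 in CR, 3.17 in RFR and 1.61 in AD. Prefrontal cortex gave 3.47 in CR, 2.80 in RFR and 1.72 in AD. CR was thus lowest in amygdala and highest in the other regions, with RFR between CR and AD in all 3. In amygdala Slc4a7 was 15.5-fold lower in CR than in AD (log2 difference -3.95) and 7.29-fold lower in RFR than in AD (-2.87). The CR difference ranked 1 by size among 12244 genes there, and the RFR difference 1 among 12072. In hypothalamus it was 3.86-fold higher in CR than in AD (1.95), and in prefrontal cortex 3.37-fold higher (1.75). The corresponding RFR values were 2.95-fold and 2.12-fold higher than AD. The array software put the error of each of these signals at 10% of the signal, its floor for a bright spot.

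The raw spots told the same order. The median pixel signal of the Slc4a7 spot in amygdala was 2660 in CR and 3751 in RFR, against 31484 in AD, over local backgrounds of 48 to 58. None of these spots was saturated or flagged as an outlier. Spots within 2 rows and 1 column of it were examined on the same arrays for a local artefact. On the AD amygdala array Slc4a7 stood 3.41 above its mean over the other amygdala arrays, while the median of 8 surrounding spots stood at -0.07 and the highest at 0.58. On the CR amygdala array Slc4a7 stood at -2.52 and the surrounding median at -0.18.

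**Figure D1:**
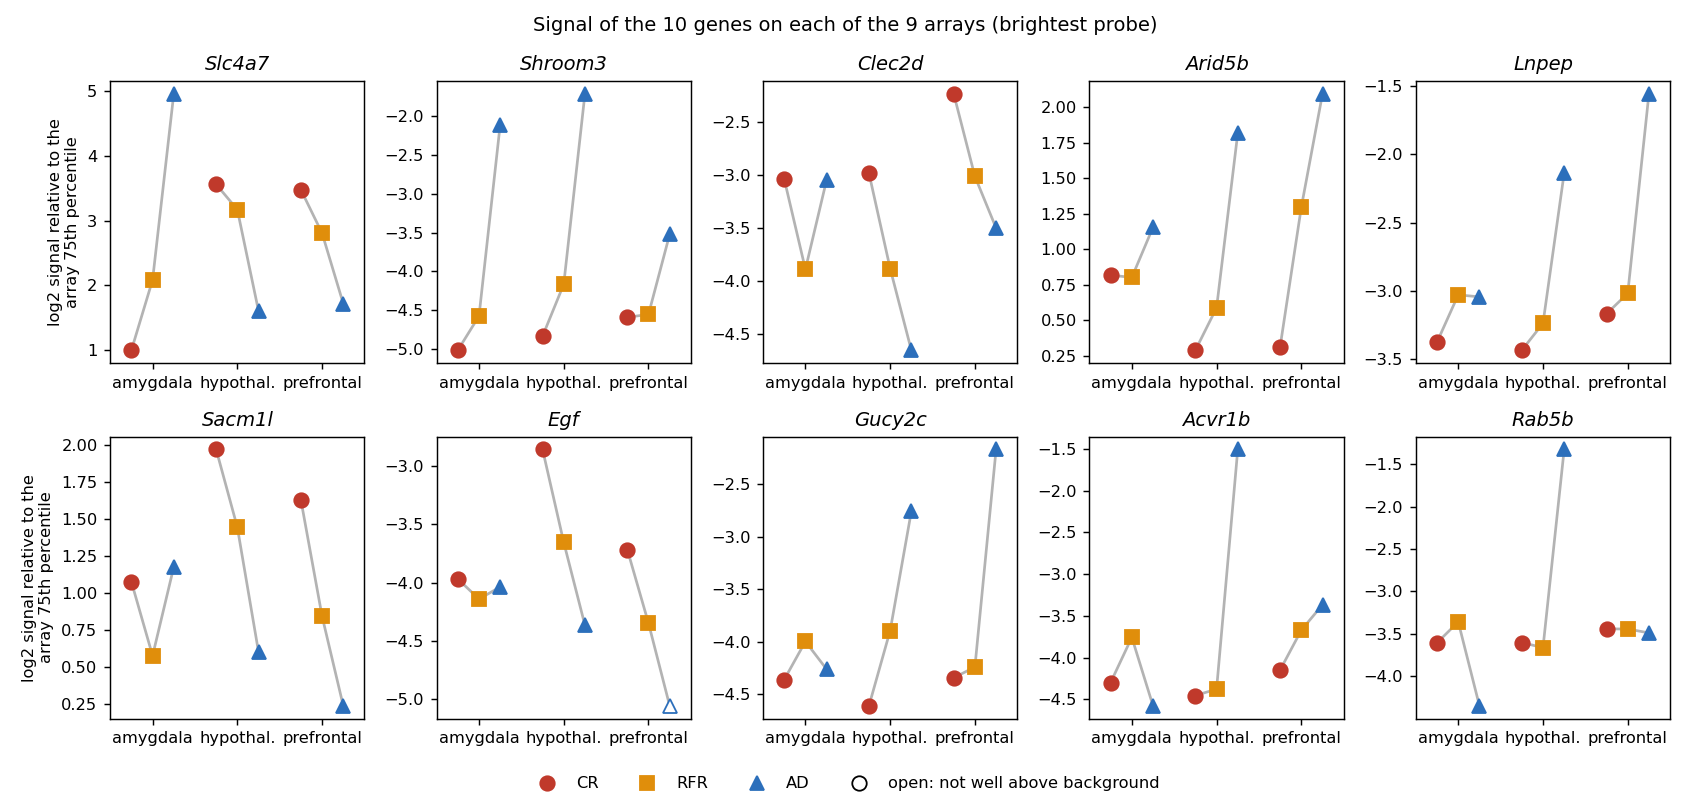
Level of each of the 10 genes on each of the 9 arrays, as log2 of signal over the array's 75th percentile (vertical axes differ between genes), by region and, from left to right, CR, RFR and AD; each point is 1 array of pooled RNA and an open point is not well above background. In amygdala Slc4a7 was at 1.00 in CR against 4.95 in AD, while in hypothalamus it was at 3.56 in CR against 1.61 in AD; Acvr1b and Rab5b stood high on the AD hypothalamus array alone.

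Shroom3 was dim, at 3.1% to 30.5% of the 75th percentile signal, yet well above background on all 9 arrays. Its amygdala levels were -5.01 in CR, -4.57 in RFR and -2.11 in AD. Hypothalamus gave -4.83 in CR, -4.16 in RFR and -1.71 in AD. Prefrontal cortex gave -4.59 in CR, -4.55 in RFR and -3.52 in AD. The AD array was the highest in every region, and CR and RFR lay close together. Against AD, CR was 7.48-fold lower in amygdala, 8.69-fold lower in hypothalamus and 2.1-fold lower in prefrontal cortex (log2 differences -2.90, -3.12 and -1.07), and RFR was 5.52-fold, 5.47-fold and 2.04-fold lower. The hypothalamus value ranked 1 by size among 11898 genes. Background correction with normexp, which draws dim spots together, gave -1.80, -2.11 and -0.79 for CR minus AD, so the cortical difference no longer reached 2-fold. The spots around Shroom3 leaned the same way on several arrays. On the CR amygdala array their median stood at -0.63 and the lowest at -2.43, where Shroom3 stood at -1.67, and on the AD amygdala array the median stood at 0.12 and the highest at 3.12, above Shroom3 itself at 2.68. On the CR hypothalamus array the median stood at -0.27, where Shroom3 stood at -1.89, and on the AD hypothalamus array at 0.40 with the highest at 1.21, where Shroom3 stood at 2.78. The part of the surroundings in the difference was not tested.

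Among the secreted and cell-surface genes, Egf gave the firmest spot values, since its probe was printed 10 times on each array. Hypothalamus levels averaged -2.86 ± 0.10 in CR and -3.66 ± 0.05 in RFR, against -4.37 ± 0.17 in AD (SD over 10, 10 and 8 spots). Prefrontal cortex averaged -3.72 ± 0.13 in CR and -4.35 ± 0.44 in RFR, against -5.06 ± 0.28 in AD (10 spots each). Amygdala averaged -3.97 ± 0.20 in CR and -4.14 ± 0.13 in RFR, against -4.04 ± 0.19 in AD (10, 9 and 10 spots). In hypothalamus the used spots of the 3 diets did not overlap, whereas in amygdala they did. The spots of an array share 1 RNA pool, so their SD is technical. Egf was 2.84-fold higher in CR than in AD hypothalamus (log2 difference 1.51) and 1.64-fold higher in RFR (0.71). In AD prefrontal cortex only 2 of 10 spots were well above background. The processed signal in that region was 2.53-fold higher in CR and 1.63-fold higher in RFR than in AD. Neither value is a lower bound, since normexp gave smaller log2 differences there, 0.24 for CR and 0.16 for RFR.

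On the AD hypothalamus array 2 of the 10 Egf spots were flagged as outliers and left out, at -1.95 and -1.78, far above the other 8, which lay between -4.63 and -4.12. With them kept, the AD mean was -3.87 and CR minus AD fell to 1.01. The authors' deposited table, whose values are ratios to the AD array, gave 0.49 for CR minus AD and -0.35 for RFR minus AD. In that mean, spots flagged on the AD array were not left out, only those flagged on the CR or RFR array. These values are therefore not like for like with the main ones of 1.51 and 0.71. Normexp gave 0.57 for CR minus AD in hypothalamus and 0.24 in prefrontal cortex, both under 2-fold.

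**Figure D2:**
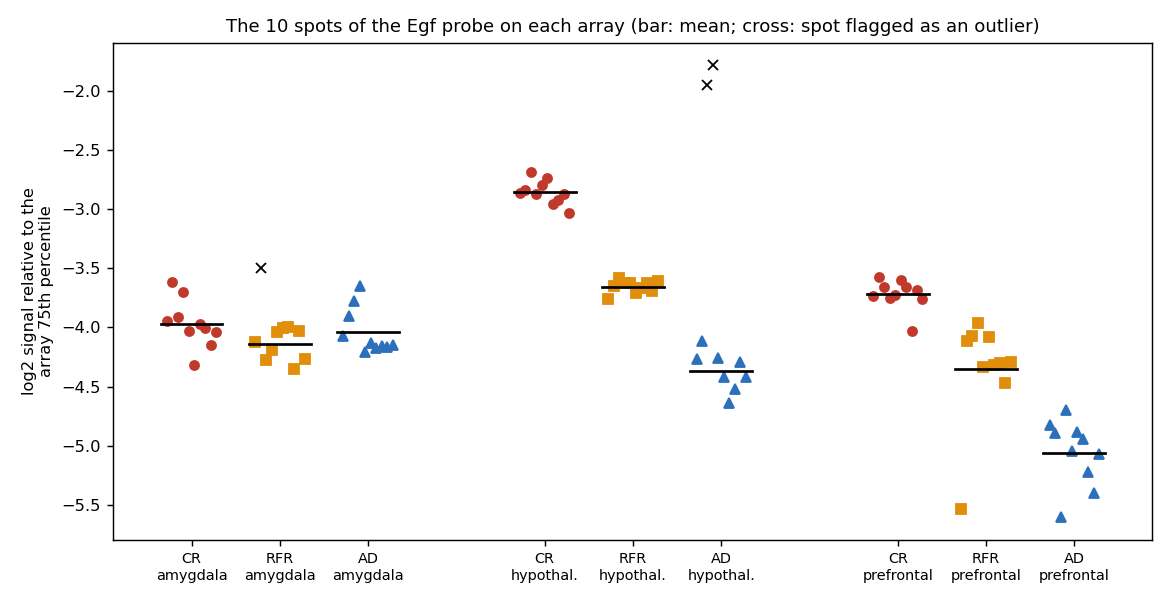
The 10 spots of the Egf probe on each array, as log2 of signal over the array's 75th percentile, with the mean of the used spots as a bar and spots flagged as outliers as crosses. In hypothalamus the CR spots lay between -3.03 and -2.69 and the used AD spots between -4.63 and -4.12, while 2 flagged AD spots lay at -1.95 and -1.78.

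Clec2d followed a similar order at a low level. Hypothalamus gave -2.98 in CR, -3.88 in RFR and -4.66 in AD. Prefrontal cortex gave -2.23 in CR, -3.01 in RFR and -3.50 in AD. Amygdala gave -3.04 in CR, -3.89 in RFR and -3.05 in AD. CR was highest and AD lowest in hypothalamus and prefrontal cortex, and in amygdala CR and AD were alike with RFR lower. CR was 3.19-fold higher than AD in hypothalamus (1.67) and 2.41-fold higher in prefrontal cortex (1.27). With normexp these differences were 0.59 and 0.69, under 2-fold. The spots around Clec2d leaned the same way. In hypothalamus their median stood at 0.26 in CR and -0.16 in AD, where Clec2d stood at 1.29 and -1.22. In prefrontal cortex it stood at 0.12 in CR and -0.25 in AD, where Clec2d stood at 1.03 and -0.88. The highest of them on the AD prefrontal cortex array stood at 2.40. The part of the surroundings in these differences was not tested.

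Gucy2c ran the other way. Hypothalamus gave -4.61 in CR, -3.89 in RFR and -2.76 in AD. Prefrontal cortex gave -4.34 in CR, -4.24 in RFR and -2.17 in AD. Amygdala gave -4.36 in CR, -4.0 in RFR and -4.26 in AD. The AD hypothalamus and AD prefrontal cortex arrays stood above the other 7, which were within -4.61 and -3.89. CR was 3.6-fold lower than AD in hypothalamus (-1.85) and 4.51-fold lower in prefrontal cortex (-2.17). The normexp values were -1.22 and -1.52, smaller and still past 2-fold. Around Gucy2c the medians of the 7 surrounding spots were 0.07 on the AD hypothalamus array and -0.01 on the AD prefrontal cortex array, where Gucy2c stood at 1.49 and 2.12.

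Acvr1b was high on 1 array. Its hypothalamus levels were -4.45 in CR and -4.38 in RFR, against -1.51 in AD. Prefrontal cortex gave -4.15 in CR, -3.67 in RFR and -3.37 in AD. Amygdala gave -4.30 in CR, -3.76 in RFR and -4.58 in AD. Only the AD hypothalamus array stood apart, and CR there was 7.72-fold lower than AD (-2.95), RFR 7.32-fold lower (-2.87). With normexp these were -1.89 and -1.84. The median of the 12 surrounding spots on that array was 0.08, with 1 spot as high as 1.88, while Acvr1b stood at 2.91.

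Rab5b showed the same single array. Its hypothalamus levels were -3.60 in CR and -3.66 in RFR, against -1.33 in AD. Prefrontal cortex gave -3.44 in CR, -3.44 in RFR and -3.49 in AD. Amygdala gave -3.60 in CR, -3.36 in RFR and -4.35 in AD. In prefrontal cortex the 3 diets lay within 0.05 of each other, less than the spot SD of a dim probe. CR was 4.84-fold lower than AD in hypothalamus (-2.28, with normexp -1.61) and 1.67-fold higher in amygdala (0.74). The median of the 6 surrounding spots on the AD hypothalamus array was 0.00, with 1 spot at 2.17, while Rab5b stood at 2.31.

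Lnpep was higher on the same 2 arrays as Gucy2c. Hypothalamus gave -3.43 in CR, -3.24 in RFR and -2.14 in AD. Prefrontal cortex gave -3.17 in CR, -3.02 in RFR and -1.56 in AD. Amygdala gave -3.37 in CR, -3.03 in RFR and -3.04 in AD. CR was 2.46-fold lower than AD in hypothalamus (-1.30) and 3.05-fold lower in prefrontal cortex (-1.61). Surrounding spots on the AD arrays of these regions had medians of 0.15 and 0.11, against 1.20 and 1.53 for Lnpep. On the CR arrays their medians were -0.10 and -0.23, against -0.75 and -0.88 for Lnpep, so they leaned the same way. The part of the surroundings in these differences was not tested.

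Sacm1l was bright, with a software error of 10% on every array. Hypothalamus gave 1.97 in CR, 1.44 in RFR and 0.60 in AD. Prefrontal cortex gave 1.63 in CR, 0.84 in RFR and 0.23 in AD. Amygdala gave 1.07 in CR, 0.57 in RFR and 1.18 in AD. The order CR, RFR, AD from high to low held in hypothalamus and prefrontal cortex, as for Clec2d and Egf, and in amygdala RFR was again the lowest. CR was 2.59-fold higher than AD in hypothalamus (1.37) and 2.63-fold higher in prefrontal cortex (1.40).

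Arid5b had 4 probes, which differed in size. The brightest, in hypothalamus, gave 0.29 in CR, 0.59 in RFR and 1.82 in AD. Prefrontal cortex gave 0.31 in CR, 1.30 in RFR and 2.09 in AD. Amygdala gave 0.82 in CR, 0.80 in RFR and 1.15 in AD. AD was highest in each region, and CR was 2.88-fold lower than AD in hypothalamus (-1.53) and 3.43-fold lower in prefrontal cortex (-1.78). The second probe, also well above background on all 9 arrays, gave smaller CR minus AD differences of the same sign. It read -1.50 in CR, -1.45 in RFR and -1.17 in AD hypothalamus, and -0.64 in CR, -1.0 in RFR and -0.24 in AD prefrontal cortex. Its CR minus AD differences were -0.34 and -0.40, and -0.12 in amygdala. In prefrontal cortex RFR was its lowest array, and CR minus RFR there was 0.35 on the second probe against -0.98 on the brightest, so the place of RFR between CR and AD in that region rests on the brightest probe. RFR minus AD there was alike on both, at -0.75 and -0.80. The remaining 2 probes were not well above background on any of the 9 arrays. No coordinates of the probes within the transcript were used here.

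The count of genes past 2-fold sums up the diet differences, over genes well above background on both arrays. In CR minus AD, which chose the genes, 2 of 10 passed in amygdala, where 3.26% of all genes did. In hypothalamus 10 of 10 passed, where 1.34% of all genes did: 4 were higher (0.647% of all genes) and 6 lower (0.689%). In prefrontal cortex 7 of 9 measured genes passed, where 1.13% of all did: 3 were higher (0.433%) and 4 lower (0.696%), and Egf was the gene not measured. Nothing is read from these counts, since the same contrast chose the genes.

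RFR minus AD shares the AD arrays with that contrast, so its values are given beside it. There 2 of 10 genes passed 2-fold in amygdala (1.47% of all genes), 7 of 10 in hypothalamus (0.691%) and 4 of 9 in prefrontal cortex (0.971%). In prefrontal cortex the RFR and AD arrays lay on the same slide, and the 4 genes were Slc4a7 (1.09), Shroom3 (-1.03), Lnpep (-1.46) and Gucy2c (-2.07). CR minus RFR leaves out the AD arrays and shares the CR arrays with the contrast that chose the genes. A smaller count there follows in part from that choice and is not read as a result. Only Slc4a7 in amygdala passed (-1.08, with 2.16% of all genes past 2-fold), and 0 of 10 genes passed in hypothalamus (0.528%) and in prefrontal cortex (0.819%). The CR and RFR hypothalamus arrays were on the same slide, and the largest differences between them were 0.90 for Clec2d and 0.80 for Egf.

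**Figure D3:**
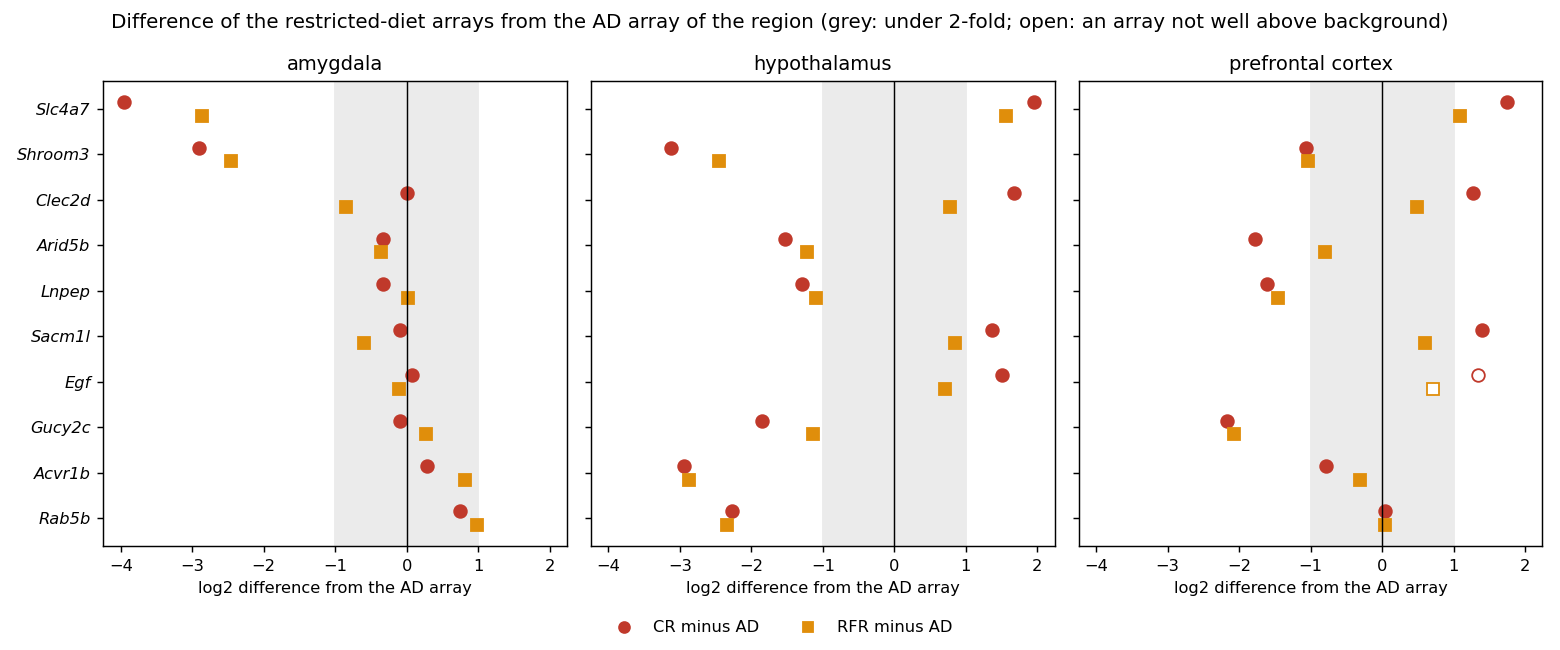
Log2 difference of the CR array (red circles) and of the RFR array (orange squares) from the AD array of the same region for each of the 10 genes, with differences under 2-fold in grey; open symbols involve an array not well above background. The CR and RFR symbols share the AD array; in hypothalamus all 10 CR differences lie outside the grey band, and in amygdala only Slc4a7 (-3.95) and Shroom3 (-2.90) do.

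The position of the RFR array was described next. Among genes past 2-fold in CR minus AD, RFR lay between CR and AD for 2 of 2 of the followed genes in amygdala (86.2% of 398 genes), 9 of 10 in hypothalamus (78.6% of 159) and 7 of 7 in prefrontal cortex (69.2% of 133). The exception was Rab5b in hypothalamus, with RFR at -3.66 just under CR at -3.60. In hypothalamus the RFR difference from AD was 97.4% of the CR difference from AD for Acvr1b, 84.8% for Lnpep, 80.4% for Arid5b, 80.0% for Slc4a7, 78.6% for Shroom3, 61.6% for Sacm1l, 61.3% for Gucy2c, 47.1% for Egf and 46.2% for Clec2d.

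Of 11451 genes measured in hypothalamus and prefrontal cortex, 32 (0.279%) were past 2-fold the same way in CR minus AD in both, and 7 of the 9 followed genes measured there were among them. Slc4a7, Clec2d and Sacm1l were higher in CR, and Shroom3, Arid5b, Lnpep and Gucy2c lower. In all 32 (100%), RFR lay between CR and AD in both regions, a position that the choice by wide CR minus AD differences favours. Amygdala did not follow for most of the 7: CR minus AD there was 0.01 for Clec2d, -0.10 for Sacm1l, -0.10 for Gucy2c, -0.33 for Lnpep and -0.34 for Arid5b. Slc4a7 was opposite there and Shroom3 in the same direction. Actb, the cytoskeletal actin often used as a loading reference and chosen here after its values were seen, was also among the 32, at 1.80 in amygdala, -1.19 in hypothalamus and -1.15 in prefrontal cortex.

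**Figure D4:**
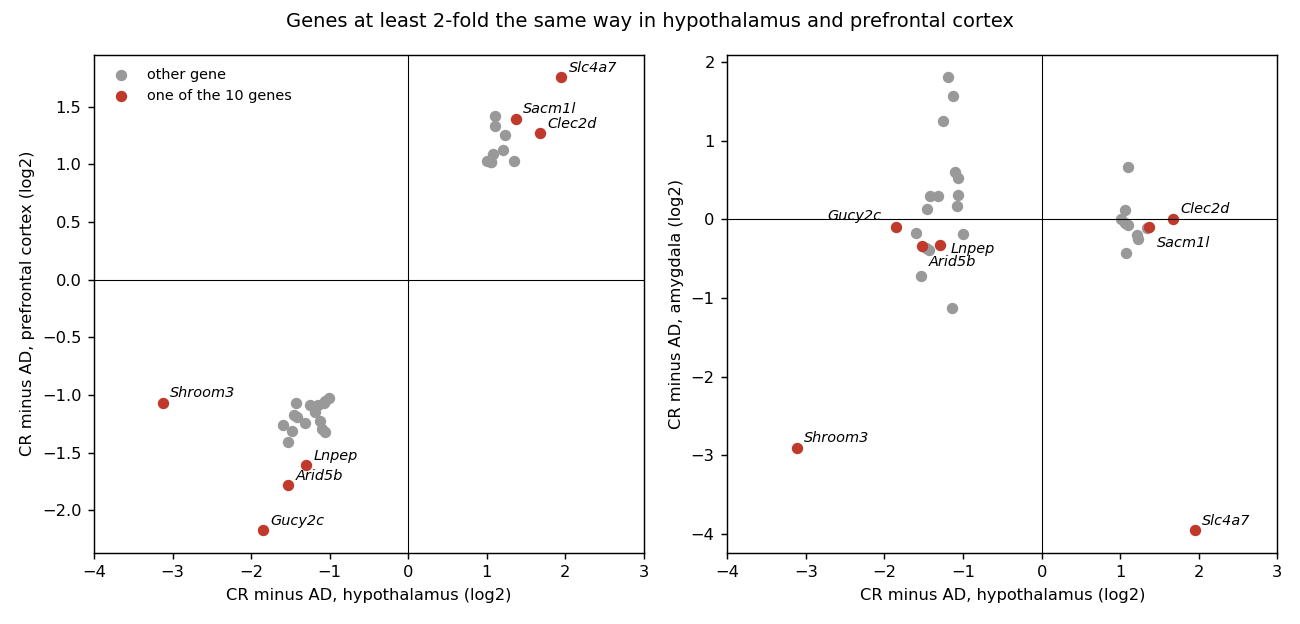
CR minus AD log2 difference of the 32 genes that were at least 2-fold the same way in hypothalamus and prefrontal cortex, with hypothalamus on the horizontal axes and prefrontal cortex (left) or amygdala (right) on the vertical ones; red points are followed genes. In the right panel Slc4a7 lies at -3.95 and Shroom3 at -2.90, and the other 5 followed genes lie between -0.34 and 0.01.

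Markers of tissue beside the brain regions differed between the single arrays of the diets as well, in opposite directions in hypothalamus and prefrontal cortex. Of the measured markers of meninges and fibroblasts, 10 of 10 were higher in CR than in AD hypothalamus (median 0.87), and 1 of 11 was higher in CR than in AD prefrontal cortex (median -0.58). Their summed level was 92.9 in CR and 51.8 in RFR hypothalamus, against 40.8 in AD, and 107 in CR and 142 in RFR prefrontal cortex, against 146 in AD. In amygdala 4 of 10 were higher in CR, with summed levels of 153 in CR and 216 in RFR against 199 in AD. Dpt of this list was not well above background on 6 of the 9 arrays. The marker sum was highest in CR in hypothalamus and lowest in CR in prefrontal cortex. Its part in the differences of the 10 genes was not tested.

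Other marker lists differed between arrays as well, in other comparisons. In amygdala, 6 of 6 measured choroid plexus markers were higher in RFR than in AD (median 1.64) and 0 of 7 higher in CR than in RFR (median -1.73), with summed levels of 2.93 in CR and 4.21 in RFR against 2.68 in AD. Otx2 of this list was not well above background on any of the 9 arrays. The hypothalamic markers were higher in RFR than in AD amygdala in 5 of 5 (median 1.26), with sums of 10.3 in CR and 16.6 in RFR against 11.05 in AD. The oligodendrocyte markers were higher in CR than in RFR in 9 of 9 in amygdala, 9 of 9 in hypothalamus and 8 of 8 in prefrontal cortex (medians 0.58, 0.26 and 0.56). Their sums were 146 in CR and 102 in RFR against 122 in AD amygdala, 218 and 164 against 202 in hypothalamus, and 104 and 57.0 against 78.7 in prefrontal cortex. The sum was thus lowest in RFR in every region. By single markers, 4 of 9 were higher in RFR than in AD amygdala (median -0.05), 1 of 9 in hypothalamus (median -0.35) and 2 of 8 in prefrontal cortex (median -0.29). The part of these lists in the values of the 10 genes was not tested.

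The levels of the 10 genes in the 3 regions were compared with limma over 3 arrays per region, 1 per diet, with the model region plus diet and Benjamini-Hochberg adjustment over 12618 genes. The genes were not chosen for their region means. They were chosen for large diet differences, however, and where these are unequal between regions they enlarge the error of this fit, so the counts below are not read against those of all genes. None of the 10 genes passed an adjusted p of 0.05 between hypothalamus and prefrontal cortex, where 48% of all genes did. None passed between amygdala and hypothalamus (29.5% of all genes) or between amygdala and prefrontal cortex (22.3%). At an unadjusted p under 0.05 the counts were 2, 0 and 0 of 10 genes, against 55.1%, 40.9% and 34.5% of all genes. Clec2d came nearest, with -3.84 ± 0.84 in hypothalamus and -2.92 ± 0.64 in prefrontal cortex (SD, n = 3 arrays of different diets), a log2 difference of -0.93 ± 0.32 (SE, limma adjusted p = 0.0508). It was lower in hypothalamus in 3 of 3 diets. Egf stood at -3.63 ± 0.75 in hypothalamus and -4.37 ± 0.67 in prefrontal cortex, a difference of 0.75 ± 0.26 (limma adjusted p = 0.0511), higher in hypothalamus in 3 of 3 diets. With normexp, Clec2d passed (-0.58, limma adjusted p = 0.0194) and Egf did not (0.24, limma adjusted p = 0.207). With slide as a term, Egf passed (0.88, limma adjusted p = 0.0314) and Clec2d did not (-0.75, limma adjusted p = 0.183).

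Some of these calls depended on the AD amygdala array. Without it, limma called 4 genes between hypothalamus and prefrontal cortex (Clec2d, Egf, Lnpep and Sacm1l). It called 3 between amygdala and hypothalamus (Egf, Sacm1l and Slc4a7) and 3 between amygdala and prefrontal cortex (Clec2d, Sacm1l and Slc4a7). Calls over all genes rose as well, from 6055 to 7287, from 3717 to 4683 and from 2816 to 3722 in the same order. The hypothalamus minus prefrontal cortex differences themselves did not change, at -0.93 for Clec2d and 0.75 for Egf in both fits. Without that array Slc4a7 was lower in amygdala than in hypothalamus by -1.76 (limma adjusted p = 0.0208), against -0.10 ± 1.08 with all arrays. The AD amygdala array took part in the choice of the genes, and Slc4a7 was highest on it. Leaving it out breaks the balance of the regions over diets, so the calls made without it are not read as a result. With all arrays its levels averaged 2.68 ± 2.04 in amygdala, 2.78 ± 1.03 in hypothalamus and 2.67 ± 0.89 in prefrontal cortex. Shroom3 averaged -3.90 ± 1.57 in amygdala, -3.57 ± 1.64 in hypothalamus and -4.22 ± 0.61 in prefrontal cortex. For the other 6 genes the widest difference between region means ran in size between that of Arid5b (-0.34, hypothalamus minus prefrontal cortex) and that of Rab5b (-0.91, amygdala minus hypothalamus), each within the SD over the arrays of at least 1 of the regions compared.

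After region and diet were fitted, the residual SD of Slc4a7 was 1.73, which is 10.3 times the median gene and the 99.8th percentile of 12618 genes. Acvr1b was at 1.03 and Rab5b at 0.95, at the 99.1st and 99.0th percentiles. The other 7 lay between 0.40 for Egf and 0.67 for Gucy2c, at the 91.3rd to 97.6th percentiles. With 1 array per region and diet, a residual holds both a change of the diet pattern between regions and the error of single arrays, which cannot be told apart.

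Over the 9 arrays, with the mean of each region taken out, the 10 genes fell into sets by their Pearson correlation. This is a description, since arrays share a region or a diet and those of 1 diet may share mice. Clec2d, Sacm1l and Egf ran together, with r of 0.97 between Clec2d and Sacm1l, 0.96 between Sacm1l and Egf and 0.93 between Clec2d and Egf. Lnpep ran with Gucy2c (0.98) and Arid5b (0.91), Gucy2c with Arid5b (0.88), and Acvr1b with Rab5b (0.95). Arid5b and Egf ran against each other (-0.94). Slc4a7 stood between the sets, its strongest value being -0.64 with Rab5b.

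Among 12533 genes with values on all 9 arrays, those most like Slc4a7 were Pdp1, a pyruvate dehydrogenase phosphatase (r = 0.99), Zhx1 (0.98) and the potassium channel subunit Kcns3 (0.98). They had its sign in all regions at a smaller size: CR minus AD of Pdp1 was -0.68 in amygdala, 0.27 in hypothalamus and 0.30 in prefrontal cortex. Most like Shroom3 were Tmem50a, Sec22a and Naa20 (0.98 each), and Tmem50a differed by -0.43, -0.31 and -0.14 in the same order of regions. The most alike gene was Mepe for Arid5b (0.99), Lrrc24 for Lnpep (0.99), Zfp672 for Sacm1l (0.99), Atg4a for Egf (0.99), Bnip2 for Gucy2c (0.99), Mybph for Acvr1b (0.98) and Kctd14 for Rab5b (0.97). With 9 arrays, 26 genes had an r over 0.9 with Rab5b and 483 with Clec2d.

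Values of relatives and partners of the 10 genes are described next. The 10 genes were chosen for large CR minus AD differences, so smaller values among relatives are not read as a result. By limma, 0 genes of the 10 lists described here were called in CR minus AD. This could not be otherwise, since 0% of 12618 genes were called, while 16.5% had an unadjusted p under 0.05. Of the other bicarbonate transporters of the Slc4 family, 0 of 7 measured were past 2-fold in CR minus AD in any region, and their median was 0.09 in amygdala, -0.49 in hypothalamus and -0.26 in prefrontal cortex, against -0.11, -0.03 and -0.03 over all genes. Slc4a10, a neuronal member, read -0.22, 0.65 and 0.39, and Slc4a4, the electrogenic cotransporter of astrocytes, 0.03, -0.56 and 0.20. Of the apical actomyosin genes around Shroom3, 0 of 7 were past 2-fold, Shroom1 reading -0.41, -0.46 and -0.68 and the kinase Rock1 -0.60, 0.43 and 0.25.

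In the list of EGF ligands and ErbB receptors, 1 of 6 measured genes was past 2-fold: the neuregulin Nrg3 was higher in CR hypothalamus (1.05) and read 0.85 in prefrontal cortex and 0.25 in amygdala. The receptor Egfr read 0.33, 0.02 and -0.20 in the same order. Of the guanylyl cyclases and their peptides, Nppc, the C-type natriuretic peptide, was past 2-fold in amygdala (-1.29). It was 1 of 7 measured. Of 15 activin and TGF-beta pathway genes measured in amygdala, the type II activin receptor Acvr2b passed there (1.00), and read -0.52 in hypothalamus and -0.38 in prefrontal cortex. The natural killer list around Clec2d had 1 measured gene, Klrb1c, at 0.13, 0.31 and 0.07 in amygdala, hypothalamus and prefrontal cortex.

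Of the ARID family, 2 of 6 measured were past 2-fold in amygdala, Arid5a at 1.33 and Jarid2 at -1.11, and 0 of 6 in the other regions. In the early endosome list the Rab5 isoform Rab5c read -0.56, -0.29 and -0.30 in amygdala, hypothalamus and prefrontal cortex. Neither the aminopeptidase list around Lnpep (0 of 10) nor the phosphatidylinositol 4-phosphate list around Sacm1l (0 of 11) had a gene past 2-fold, and Slc2a4 read 0.42, 0.79 and 0.02. These counts set beside 3.26% of all genes past 2-fold in amygdala, 1.34% in hypothalamus and 1.13% in prefrontal cortex are a description of single arrays.

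Between regions, the relatives are given by their counts of limma calls. In hypothalamus minus prefrontal cortex, where 26.7% of all genes were higher and 21.3% lower, 1 of 7 Slc4 genes was higher and 1 lower, 0 of 7 actomyosin genes higher and 5 lower, 2 of 6 ARID genes higher and 1 lower, and 2 of 10 aminopeptidase genes higher and 4 lower. There, 2 of 11 phosphatidylinositol 4-phosphate genes were higher and 3 lower, 2 of 6 EGF and ErbB genes higher and 1 lower, 3 of 7 guanylyl cyclase genes higher and 0 lower, 1 of 15 activin and TGF-beta genes higher and 6 lower, and 3 of 14 endosome genes each way. Klrb1c was lower. In amygdala minus hypothalamus, where 13.5% of all were higher and 15.9% lower, 6 of 15 activin and TGF-beta genes were higher and 0 lower, and 4 of 10 aminopeptidase genes higher and 1 lower. Klrb1c was higher there, and each of the other lists had 0 or 1 gene higher and 0 to 2 lower.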

How the data were processed

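Each array gave a scanner file of Agilent Feature Extraction 9.5.1.1, per the file headers. Its processed signal is an intensity that was background-subtracted and detrended within the array by the authors' software; the median spot and local background signals in the deposited files are intensities too. Deposited quality columns are flags of another kind (other), marking spots well above background, saturated or outlying. A further table of the authors holds a ratio to each region's AD array, and 99.2% of its values lay within 0.01 log2 units of the scanner files' ratios after 1 constant per array (0.005 to 0.131). Per the labels' protocols, 400 ng of RNA from a pool of 4 mice was labelled for each array.

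Here log2 processed signal was scaled to the 75th percentile of noncontrol spots, flagged spots were left out, spots of a probe were averaged and the brightest probe stood for a gene. Of 41174 probes, 22951 matched a symbol through their RefSeq accession in a GRCm38.p6 gene table, used for names alone. Regions were compared with limma 3.58.1 (R 4.3.3), model region plus diet with 4 residual degrees of freedom, over 12618 genes well above background on at least 3 arrays with values on at least 6, tested on simulated data. Each region and diet has 1 array of pooled RNA, and the arrays of 1 diet may come from the same mice. No limma p-value for diets is therefore used as support. Python 3.11.15, numpy 2.4.6 and pandas 2.3.3 did the rest.

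The genes and the lists of relatives were chosen with earlier results of these data known. Named were the 10 genes, the genes most correlated with each (3 for Slc4a7 and Shroom3, otherwise 1) and up to 4 of each list by size of CR minus AD; a few results that this rule or a marker list would name are not reported here. Alternatives were normexp (offset 50), quantile scaling, the authors' table, the mean of all probes, other filters, another variance model, slide as a term and leaving out each array. The number of arrays limits the precision.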

Additional observations from a re-analysis of the deposited data

Results flagged for a closer look

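Slc4a7 moved in opposite directions between regions. CR minus AD was -3.95 in amygdala, against 1.95 in hypothalamus and 1.75 in prefrontal cortex, and amygdala minus those regions came to -5.90 and -5.70 on the log2 scale. Each region and diet has 1 array, so the difference between regions was not tested.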

How the results depend on the processing

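For CR minus AD, 20 differences of the 10 genes were at least 2-fold, counting Egf in prefrontal cortex, whose AD array was not well above background and which the count by region leaves out. All 20 kept their direction with normexp, with quantile scaling and with flagged spots kept, as did the 18 of them present in the authors' table. With normexp 15 of 20 stayed past 2-fold, with quantile scaling 19 of 20, with flagged spots kept (chosen after seeing the data) 20 of 20, and 17 of 18 in the authors' table. With normexp, RFR minus AD in prefrontal cortex had 2 of the 10 genes past 2-fold in place of 4, and CR minus RFR in amygdala 0 in place of 1. Calls between hypothalamus and prefrontal cortex moved to 1 gene, in place of 0, with normexp, quantile scaling, genes well above background on all 9 arrays, trended robust variances or slide as a term. Over all genes, 5501 to 6291 were called with those settings, against 6055 in the main fit. Leaving out each array in turn gave 0 to 4 genes called in that contrast, and 0 to 3 in each of the 2 amygdala contrasts. Over all genes these fits called 4580 to 7287 in hypothalamus minus prefrontal cortex. They called 2141 to 4683 in amygdala minus hypothalamus and 1618 to 3722 in amygdala minus prefrontal cortex. Amygdala minus prefrontal cortex was near 0 with all arrays, at 0.01 ± 1.08 for Slc4a7 and 0.04 ± 0.31 for Sacm1l (SE). Without the AD amygdala array it was -1.65 for Slc4a7 (limma adjusted p = 0.0298) and -0.43 for Sacm1l (limma adjusted p = 0.0308). Without the CR amygdala array it was 1.25 and 0.31. Both arrays took part in the choice of the genes, so these shifts are not read as a result. The causes were not tested. The authors' table was not run for region contrasts, since its ratios are to the AD array of each region. Region contrasts were fitted with diet as a term, which compares arrays within a diet. For the diets themselves no further paired analysis was run, since each region and diet has 1 array. Dim genes are limited by signal over background.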
